A study of Mus musculus with 17 samples.

Results

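The synthesis, transport, sensing and breakdown of retinoic acid were followed through 9 genes, Aldh1a1, Aldh1a2, Aldh1a3, Rdh10, Crabp1, Crabp2, Rarb, Cyp26b1 and Stra6, taken by symbol from a count table of 23420 genes. All 9 had a row in the table. The series measured RNA by sequencing in 17 libraries of mouse C57BL/6 cells. The cells derive from mice with the R172H knock-in allele of the tumour suppressor p53, and the titles of 2 libraries name p53 as knocked out. Bone marrow mesenchymal stem cells (MSC, 3 libraries) were flushed from the femurs and tibias of these mice. First-generation tumour lines (TL1, 6 libraries) were derived from tumours of such cells, and second-generation tumour lines (TL2, 4 libraries) are labelled as the generation after TL1. Clones of first-generation lines were sequenced as controls that keep mutant p53 (Mut clone, 2 libraries) and as p53 knockouts (KO clone, 2 libraries). No library was treated with an agent, and retinoids are not named among the additions to the medium. MSC had their own medium, whereas cells from tumours were kept over agar with leukaemia inhibitory factor, so the effects of culture and of tumour origin cannot be told apart. The labels give passages between 2 and 20 for all groups, and do not say which line the clones came from or whether libraries of a group are separate animals or cultures. If they are not, the p-values below measure a spread that may be technical.

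Cells take up retinol from its plasma carrier through the membrane receptor STRA6, oxidise it to retinal and then, irreversibly, to retinoic acid. Retinoic acid binds nuclear receptors of the RAR family, which pair with RXR receptors on DNA, and many genes of the pathway are themselves retinoic acid targets. In mesenchymal cells the pathway takes part in choices between skeletal, fat and muscle fates.

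Library totals ranged from 12215025 to 15962341 counts, so that 1 count was worth between 0.0643 and 0.0836 CPM, the unit of counts scaled to a common library total. The summed level of 14 mesenchymal stromal markers lay between 23950 and 32010 CPM in MSC libraries, and between 4377 and 13930 CPM elsewhere, a sum in which Col1a1, Col1a2, Vim and Cxcl12 weigh most. Single markers went both ways, with Thy1 at a mean of 44.7 CPM in MSC and at most 1.11 CPM in each other group, and Nt5e at 1.79 CPM in MSC against 17.4 CPM in TL1 and 17.8 CPM in TL2. Ptprc, the pan-leukocyte marker, had a mean of at most 0.139 CPM in any group. Summed adipocyte markers lay between 270.7 and 662.6 CPM in MSC libraries and between 1.44 and 7.75 CPM in lines and clones, with Cidec at 0 in TL1, TL2 and both kinds of clone. Summed skeletal muscle markers were at 16.3 to 89.8 CPM in MSC, 136.2 to 2942 CPM in TL1 and 1.09 to 811.1 CPM in TL2. Summed epithelial markers lay between 0.458 and 1.7 CPM in MSC libraries, 6.88 and 71.9 CPM in TL1 and 5.1 and 308.9 CPM in TL2. Of the macrophage and haematopoietic list, Cd34 had means of 12.9, 154.2 and 271.6 CPM in MSC, TL1 and TL2. Others of that list did not follow it, with Lyz2 at 7.07, 3.34 and 5.12 CPM and Csf1r at 2.53, 2.7 and 2.225 CPM. Cd68 was at 3.13, 3.46 and 7.1 CPM. The part of these markers in the results on lines and MSC was not tested. KO clone 2 stood apart in its share of Rn45s, a ribosomal RNA precursor, at 4.14% against 0.476 to 1.59% in each other library. In bulk RNA, fewer cells of a type and less RNA per cell cannot be told apart.

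Between tumour lines and MSC, 3 of the 8 members that could be tested fell and 0 rose. The 3 were the retinal dehydrogenases Aldh1a2 and Aldh1a1 and the retinoic acid hydroxylase Cyp26b1. They thus include genes of synthesis and a gene of breakdown. Aldh1a2, at most at 0.261 CPM in any line, passed the filter on low counts only through MSC. It could therefore enter the test only as a fall. The uptake receptor Stra6 and the carrier Crabp2 had large positive estimates that did not pass the test, with lines that spread 82.9-fold for Stra6 and 166.9-fold for Crabp2. Both generations weighed equally in the difference, and p-values came from edgeR's quasi-likelihood fit, and genes were called at a Benjamini-Hochberg adjusted p under 0.05 over all 13262 genes tested. Of those genes, 8.65% were called, 3.86% as higher and 4.79% as lower. The median estimate over the 8 members was 1.33 on the log2 scale, with 5 positive and 3 negative, against a median of 0.10 over all genes tested.

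**Figure D1:**
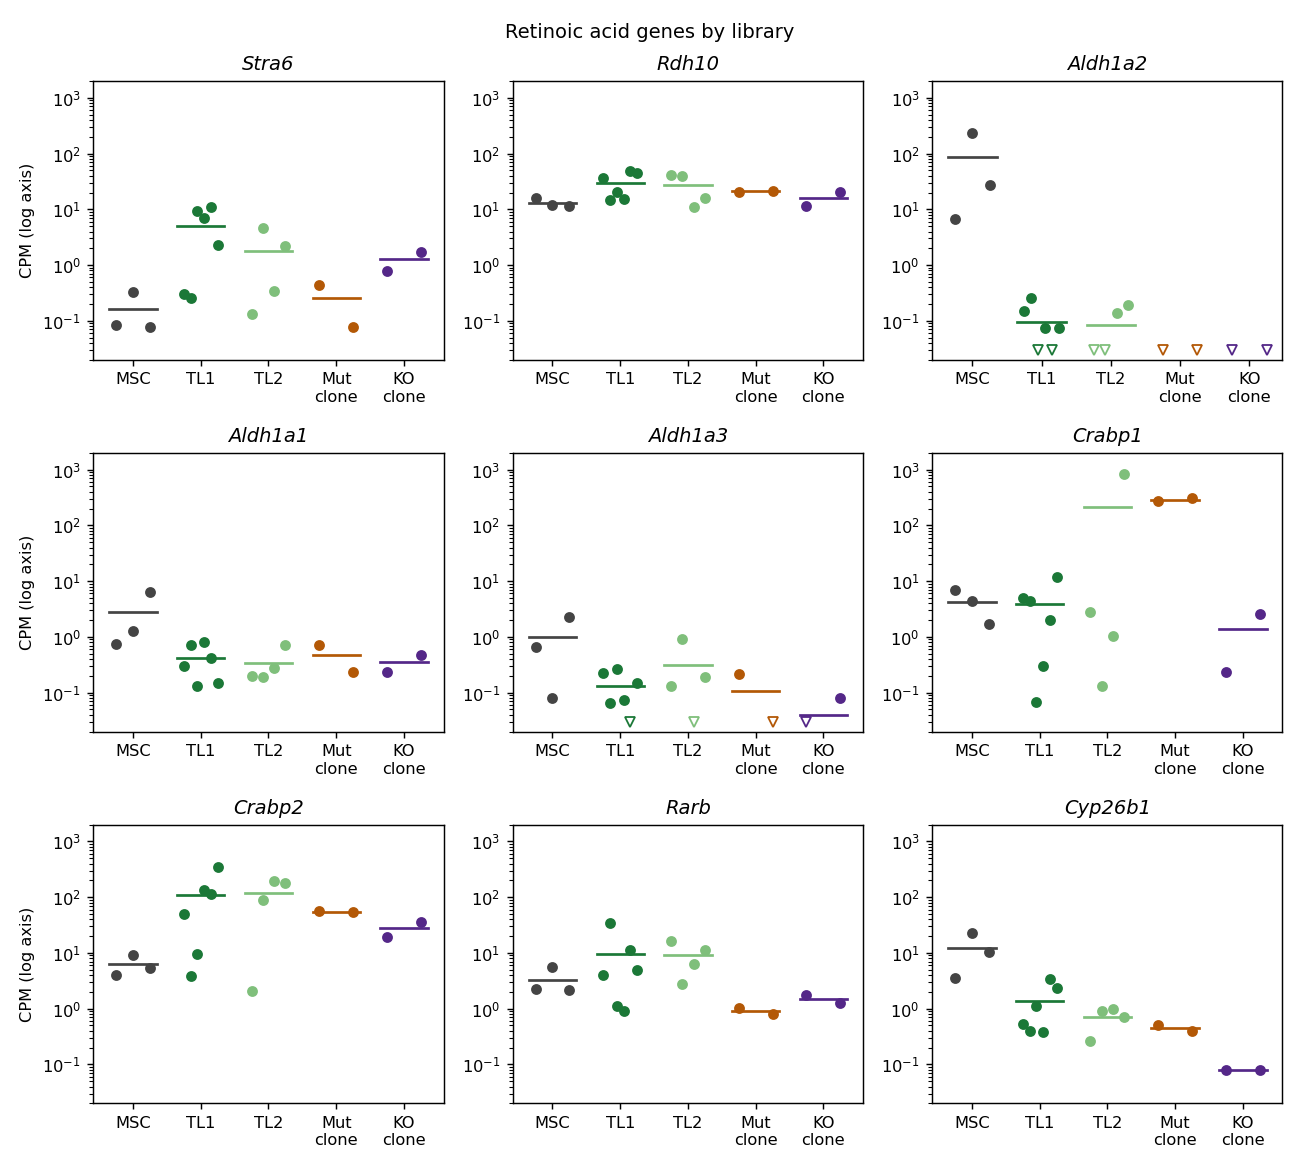
CPM of each of the 9 genes on a log axis, by group; each point is a library, each bar the group mean, and open triangles at the foot are libraries with 0 counts. Aldh1a2 and Cyp26b1 are higher in all 3 MSC libraries than in every line and clone. For Cyp26b1 in TL1 3a this rests on the TMM library sizes. Crabp1 is at 276.5 CPM or above in TL2 3 and both Mut clones and at most at 11.8 CPM in the other libraries.

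Aldh1a2 (chromosome 9, 71215789 to 71296243, GRCm38) encodes the dehydrogenase that makes most retinoic acid in the early embryo. It was counted at 6.69 CPM in MSC 1, 229.9 CPM in MSC 2 and 27.6 CPM in MSC 3. In TL1 it ranged from 0 to 0.261 CPM with a median of 0.0751 CPM, and the TL2 lines were at 0 in TL2 1 and TL2 2a, 0.14 CPM in TL2 2b and 0.193 CPM in TL2 3. The 10 lines together gave 13 counts against 3287 in MSC, and 4 of the lines gave none. The MSC libraries spread 34.4-fold among themselves, yet the lowest of them stood above every line. Aldh1a2 fell by 9.79 ± 0.97 on the log2 scale (SE; edgeR adjusted p = 0.000191), and it was called under all 22 alternatives, with adjusted p between 6.042e-19 and 0.0258. Without MSC 2, the library with the highest level, the log2 change was -7.44 (adjusted p = 0.00118). All 4 clones had 0 counts, which allows at most 0.217 to 0.239 CPM per library, and says nothing of a difference between the clones.

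Aldh1a1 (chromosome 19, 20492583 to 20643463) encodes a retinal dehydrogenase also used as a marker of stem-like tumour cells. It was at 0.752 CPM in MSC 1, 1.29 CPM in MSC 2 and 6.49 CPM in MSC 3. TL1 ranged from 0.134 to 0.825 CPM with a median of 0.359 CPM, and TL2 lines were at 0.197, 0.194, 0.28 and 0.707 CPM in TL2 1, 2a, 2b and 3. TL1 2b lay above MSC 1, so the groups overlapped, and the 9 other lines lay below all MSC. TL1 1b and TL2 3 had 11 counts each against 9 in MSC 1, so their places rest on the TMM library sizes. Aldh1a1 fell by 2.84 ± 0.66 (log2, SE; edgeR adjusted p = 0.0207). Without MSC 3 the estimate was a log2 change of -1.36 with an adjusted p of 0.382, and with TL1 alone or TL2 alone against MSC, or lines summed by title number, the adjusted p was 0.0552, 0.0719 and 0.0881. Of its 60-base windows, 2.11% also occur in transcripts of Aldh1a7, a close copy, which was at a mean of 1.62 CPM in MSC and 0.0597 CPM in the lines.

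Aldh1a3 (chromosome 7, 66390892 to 66427477), another retinal dehydrogenase, was too low to be tested, with 39 counts over MSC and 30 over the lines. MSC were at 0.669, 0.0808 and 2.29 CPM in the order MSC 1 to MSC 3, and TL1 ranged from 0 to 0.268 CPM with a median of 0.113 CPM. TL2 2a, at 0.906 CPM, was above MSC 1 and MSC 2, and the other TL2 lines were at 0.131 CPM in TL2 1, 0 in TL2 2b and 0.193 CPM in TL2 3. The 3 dehydrogenases summed to 8.11, 231.3 and 36.3 CPM in MSC 1 to MSC 3 and to between 0.328 and 1.1 CPM in the lines. Aldh1a2 supplied 82.5% of that sum in MSC 1 (95% Wilson interval 73.7 to 88.8%), 99.4% in MSC 2 (99.1 to 99.6%) and 75.8% in MSC 3 (71.8 to 79.5%), intervals that cover counting error only.

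Promoter sequence is shown for Aldh1a2 and Crabp1, the members with the largest called changes, as the RefSeq bases before each start site (GRCm38.p6), 5′ to 3′, with CG pairs in capitals. RefSeq promoters were found for 6 of the 9 members. Aldh1a2 holds 40 CG pairs in 250 bases, more than 98.7% of 32851 RefSeq promoters, and Crabp1 holds 12, more than 66.5% of them, against a median of 6.
Aldh1a2, chr9:71215539-71215788, forward strand: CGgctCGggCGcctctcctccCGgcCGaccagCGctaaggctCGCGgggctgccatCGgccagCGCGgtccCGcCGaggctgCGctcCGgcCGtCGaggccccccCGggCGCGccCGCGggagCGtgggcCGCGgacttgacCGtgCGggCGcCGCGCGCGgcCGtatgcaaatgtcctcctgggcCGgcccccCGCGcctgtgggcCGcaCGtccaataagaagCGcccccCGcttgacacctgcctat
Crabp1, chr9:54764498-54764747, forward strand: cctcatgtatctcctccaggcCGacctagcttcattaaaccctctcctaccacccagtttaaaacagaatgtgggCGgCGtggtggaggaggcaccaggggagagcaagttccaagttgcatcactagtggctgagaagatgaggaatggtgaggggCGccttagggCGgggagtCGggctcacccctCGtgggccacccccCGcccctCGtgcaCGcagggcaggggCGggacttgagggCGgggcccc

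Rdh10 (chromosome 1, 16105882 to 16132550) encodes the retinol dehydrogenase that commits retinol to retinoic acid synthesis. It was at 15.96, 11.96 and 11.6 CPM in MSC 1 to MSC 3, between 14.4 and 48.7 CPM in TL1 with a median of 28.4 CPM, and at 41.7, 39.1, 10.9 and 16.1 CPM in TL2 1, 2a, 2b and 3. The lines spread 4.46-fold, less than for any other member counted in every line, and 7 of the 10 lay above all MSC. The change of 1.14 ± 0.49 (log2, SE) did not pass the test (edgeR adjusted p = 0.162). With lines summed by the number in their titles it did pass (adjusted p = 0.0447), at a log2 change of 1.13.

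Stra6 (chromosome 9, 58063793 to 58154004), the retinol uptake receptor and a retinoic acid target, was nearly silent in MSC, at 0.0836, 0.323 and 0.0763 CPM in MSC 1 to MSC 3, which is 6 counts in all. TL1 lines were between 0.261 and 10.9 CPM with a median of 4.62 CPM, and TL2 lines were at 0.131, 4.6, 0.349 and 2.19 CPM in TL2 1, 2a, 2b and 3. The 3 lines numbered 1 stayed at 0.131 to 0.299 CPM, within the MSC range, and the other 7 lines were above all MSC. The change was 4.19 ± 1.52 (log2, SE; edgeR adjusted p = 0.104). The number in the title, entered as a block, gave 3.79 with an adjusted p of 0.0476, DESeq2 gave an adjusted p of 0.00704, and limma-voom gave 3.10 with 0.412.

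Crabp2 (chromosome 3, 87948693 to 87953372) carries retinoic acid to its nuclear receptors and is a retinoic acid target. MSC 1 to MSC 3 were at 4.01, 9.21 and 5.42 CPM. TL1 ranged from 3.85 CPM in TL1 1b to 350.6 CPM in TL1 3b with a median of 83.0 CPM, and TL2 lines were at 2.1, 89.1, 195.3 and 179.4 CPM in TL2 1, 2a, 2b and 3. TL1 1b and TL2 1 lay below all MSC, and the other 8 lines lay above all MSC. TL1 1b had 59 counts against 48 in MSC 1, so its place rests on the TMM library sizes. The estimate was 4.23 ± 1.49 (log2, SE; edgeR adjusted p = 0.0949). DESeq2 (adjusted p = 0.00293) and the lines summed by number (adjusted p = 0.0428) called it, whereas limma-voom gave 3.06 with an adjusted p of 0.441 and the title number as a block gave 3.50 with 0.0978.

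Crabp1 (chromosome 9, 54764748 to 54773110) holds retinoic acid in the cytoplasm and is linked to its breakdown. It was at 6.85, 4.36 and 1.68 CPM in MSC 1 to MSC 3, and between 0.0669 and 11.8 CPM in TL1 with a median of 3.2 CPM. TL2 lines were at 2.82 CPM in TL2 1, 0.13 CPM in TL2 2a, 1.05 CPM in TL2 2b and 840.1 CPM in TL2 3. A single line was thus far above the rest, and the 4 lines numbered 2 were at or under 1.05 CPM, below all MSC. The change of lines against MSC was 2.78 ± 2.04 (log2, SE; edgeR adjusted p = 0.408), and without TL2 3 it was -0.90 with an adjusted p of 0.616. The number in the title as a block gave -0.65.

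Rarb (chromosome 14, 16430839 to 17082331) encodes retinoic acid receptor beta, a classical retinoic acid target. It was at 2.26, 5.57 and 2.14 CPM in MSC 1 to MSC 3, between 0.9 and 34.2 CPM in TL1 with a median of 4.46 CPM, and at 16.4, 2.72, 6.29 and 11.3 CPM in TL2 1, 2a, 2b and 3. Of the lines, 5 were above all MSC and 2 below all MSC, and TL1 1b was far above the other TL1 lines. The change was 1.52 ± 1.01 (log2, SE; edgeR adjusted p = 0.359). Top2b lies on the opposite strand and covers 34.1% of the exon bases of Rarb. Because the strand setting of the counting is not given in the sources used here, reads of the overlapping exons cannot be assigned with certainty. Top2b itself lay between 169.9 and 190.7 CPM in MSC libraries and between 83.0 and 207.3 CPM in lines, and TL1 1b held the highest value of both genes among the TL1 lines. KO clones 1 and 2 held Top2b at 214 and 202.3 CPM with Rarb at 1.73 and 1.27 CPM. The part of Top2b reads in the counts of Rarb was not tested.

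Rarb is shown because its start site is known to carry a retinoic acid response element, and Cyp26a1, which encodes another retinoic acid hydroxylase, because a script found the same kind of element there. The search took direct repeats, 5 bases apart, of the consensus half-site AGGTCA, the known form spelled AGTTCA, another spelled GGGTCA or the form spelled GGTTCA, in any pairing, on both strands of the 250 bases before each RefSeq start. Of 32851 such windows, 0.0883% held one. Among the 46 genes of the retinoid lists given further on that have a RefSeq promoter, Rarb and Cyp26a1 held a match and no other did. The forms searched include both repeats of the known Rarb element, so the match of Rarb was fixed in advance and that share does not measure it. Both repeats of the Cyp26a1 match have the form AGTTCA, put into the search as known. The share does not measure that match either. Repeats 2 and 1 bases apart were searched as well, and among these genes only Bco1 held one, with 1 base between. Sequences are 100 bases, 5′ to 3′ along the gene, with the repeat in capitals.
Rarb, chr14:16575477-16575576, reverse strand: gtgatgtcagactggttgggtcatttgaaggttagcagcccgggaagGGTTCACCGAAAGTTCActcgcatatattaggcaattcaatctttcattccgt
Cyp26a1, chr19:37697708-37697807, forward strand: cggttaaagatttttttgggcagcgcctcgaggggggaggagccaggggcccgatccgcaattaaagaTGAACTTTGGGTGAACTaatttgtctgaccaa
The match of Rarb lies 53 to 37 bases before the start, and that of Cyp26a1, on the other strand, 32 to 16 bases before it. A match is a description of the letters. Cyp26a1 was low in every group, with means of 0.103 CPM in MSC, 0.527 CPM in TL1, 0.277 CPM in TL2, 0.293 CPM in Mut clones and 0.277 CPM in KO clones. Its highest value in the lines was 1.34 CPM, in TL1 2a. Cyp26a1 gave 63 counts over the lines and 4 over MSC, and Cyp26c1, also on the list of breakdown genes, gave 48 and 0. Both were too low to be tested.

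Cyp26b1 (chromosome 6, 84571414 to 84593908) clears retinoic acid by oxidation. It was at 3.59, 23.0 and 10.5 CPM in MSC 1 to MSC 3, between 0.375 and 3.35 CPM in TL1 with a median of 0.831 CPM, and at 0.263, 0.906, 0.978 and 0.707 CPM in TL2 1, 2a, 2b and 3. Every line lay below all MSC in CPM, and TL1 3a came nearest to MSC 1. TL1 3a had 48 counts against 43 in MSC 1, so this order rests on the TMM library sizes. Groups without overlap in this direction were found for 7.5% of all genes tested, and for 2 members, Cyp26b1 and Aldh1a2. Cyp26b1 fell by 3.61 ± 0.66 (log2, SE; edgeR adjusted p = 0.00599). It kept that call in 21 of 22 alternatives, and with lines summed by number the adjusted p was 0.0613. Without MSC 2 the log2 change was -2.81 (adjusted p = 0.0477).

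**Figure D2:**
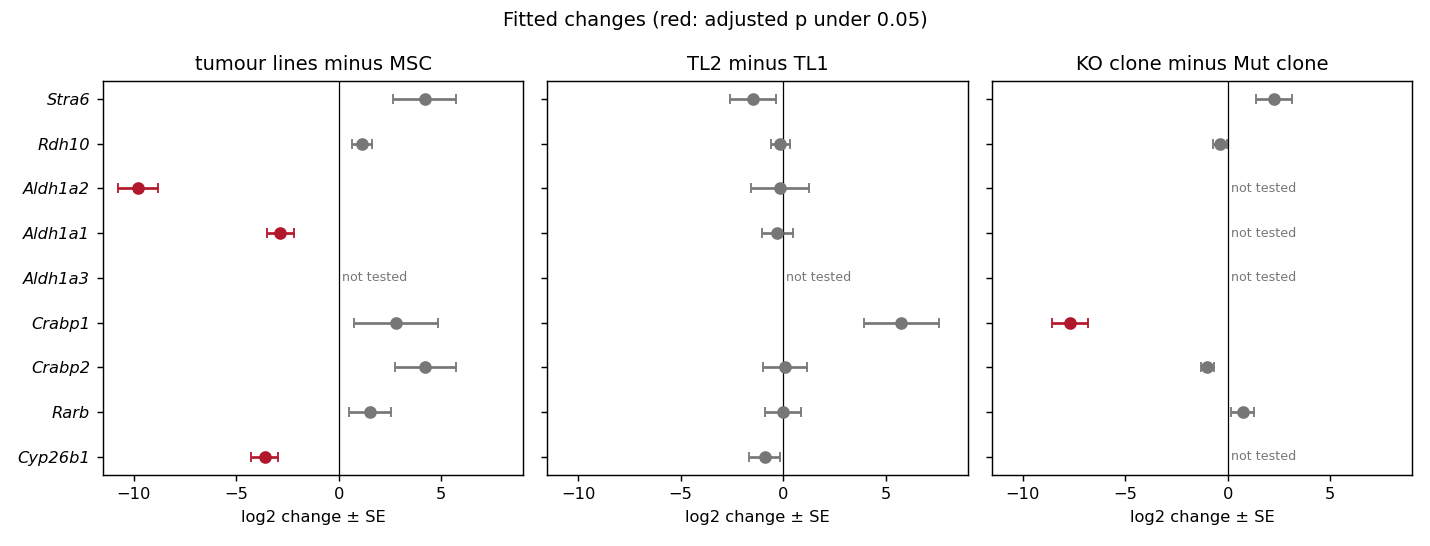
Fitted log2 change with its SE for each gene in the 3 comparisons; red marks an adjusted p under 0.05, and genes too low to be tested are so marked. Aldh1a2 at -9.79, Cyp26b1 at -3.61 and Aldh1a1 at -2.84 are called in lines against MSC, and Crabp1 at -7.69 in KO against Mut clones.

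Between second- and first-generation lines none of the 8 members tested was called. Over all 13262 genes 0% were called by edgeR, 1.85% had an unadjusted p under 0.05, DESeq2 called 3 genes as lower and limma-voom called 0. The generations' ranges overlapped for all 8 tested members, and failed to overlap for 0.136% of all genes tested. The largest difference was that of Crabp1, at 5.76 ± 1.84 (log2, SE; edgeR adjusted p = 0.9999), and it was -1.56 without TL2 3. Crabp2 differed by 0.07 ± 1.09, Rarb by -0.01 ± 0.88 and Rdh10 by -0.14 ± 0.45, and Stra6 had the largest negative estimate, -1.46 ± 1.12. The SEs of the members ran from 0.45 for Rdh10 to 1.84 for Crabp1, which limits the size of difference that could have been called.

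The levels of several members differed between lines with different numbers in their titles. Lines numbered 1 had low Stra6 (0.131 to 0.299 CPM), variable Crabp2 (2.1 to 50.7 CPM) and Rarb at 4.04 to 34.2 CPM. Lines numbered 2 had the lowest Crabp1 (0.0669 to 1.05 CPM) and Rarb at 0.9 to 6.29 CPM. Lines numbered 3 held Crabp2 at 115.4 to 350.6 CPM, above every line numbered 1, and Stra6 at 2.19 to 10.9 CPM. These are descriptions over 3 or 4 lines each, with no test. Per kb of exon, Crabp2 exceeded Crabp1 in 7 lines, by 6.13-fold in TL1 1a to 417.2-fold in TL2 2a, and Crabp1 exceeded Crabp2 in TL1 1b, TL2 1 and TL2 3.

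**Figure D3:**
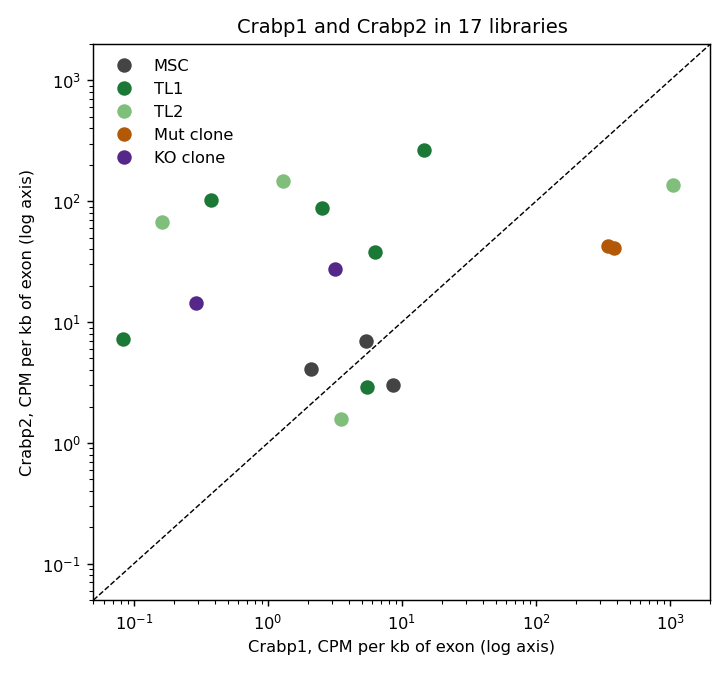
Crabp1 against Crabp2 in CPM per kb of exon, both axes logarithmic, one point per library; the dashed line marks equal levels. The 2 Mut clones and TL2 3 lie below the line at high Crabp1, and the 2 KO clones lie above it with Crabp2 8.61- and 48.9-fold over Crabp1.

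The KO clones, named as p53 knockouts, were compared with the Mut clones, 2 libraries against 2. The labels do not give the lines the clones came from, so p53 status and clone or line of origin cannot be told apart. Trp53 was at 357.1 and 277.8 CPM in the Mut clones and at 80.5 and 89.5 CPM in the KO clones, lower where the labels name a knockout. One member fell in the KO clones, the carrier Crabp1, and 0 rose. Crabp1 was at 276.5 and 304.6 CPM in Mut clones 1 and 2, and at 0.235 and 2.55 CPM in KO clones 1 and 2. The log2 change was -7.69 ± 0.88 (SE; edgeR adjusted p = 0.00643), and it was -6.82 without KO clone 1 and -10.19 without KO clone 2. Mut and KO clones did not overlap for any of the 5 tested members, nor for 69.7% of all genes tested. Of 12238 genes tested 26.1% were called, 14.2% as higher and 12% as lower, so 1 call among 5 tested members is near the background. With all 17 libraries in 1 fit, which lets the lines set the spread, the adjusted p of Crabp1 was 0.148.

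Crabp2 was at 56.1 and 54.5 CPM in the Mut clones and 18.98 and 36.1 CPM in the KO clones, a log2 change of -0.99 ± 0.34 (SE; edgeR adjusted p = 0.0716). Its adjusted p was 0.0475 with library totals, 0.0387 with DESeq2 and 0.0436 without KO clone 2. It was 0.244 without KO clone 1, at a log2 change of -0.60, and 0.727 with all 17 libraries in 1 fit. Per kb, the balance of the carriers differed between clones, with Crabp1 8.12- and 9.22-fold over Crabp2 in the Mut clones and Crabp2 48.9- and 8.61-fold over Crabp1 in the KO clones. The other tested members did not pass. Stra6 was at 0.434 and 0.0791 CPM in Mut clones and 0.784 and 1.75 CPM in KO clones (log2 change 2.25 ± 0.89, edgeR adjusted p = 0.108). Rarb was at 1.01 and 0.791 CPM against 1.73 and 1.27 CPM (0.74 ± 0.56, edgeR adjusted p = 0.366), and Top2b at 135.3 and 123.4 CPM against 214 and 202.3 CPM. Rdh10 was at 20.8 and 21.03 CPM against 11.6 and 20.4 CPM (-0.38 ± 0.34, edgeR adjusted p = 0.441).

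The remaining members were too low to be tested in the clones. Cyp26b1 gave 12 counts in Mut and 2 in KO clones, a ratio of 5.74 with a 95% counting interval of 1.28 to 52.8. Aldh1a1 gave 13 and 9 counts, Aldh1a3 gave 3 and 1, and Aldh1a2 none. Summed skeletal muscle markers moved with this comparison, at 0.949 to 1.08 CPM in the Mut clones and 2810 to 3032 CPM in the KO clones, with all 5 of the list above 1 CPM in the latter and 0 of 5 in the former. Summed epithelial markers were at 34.9 to 110.9 CPM in the Mut and 3.5 to 3.61 CPM in the KO clones. Krt18 alone had means of 71.6 CPM in the Mut and 0.157 CPM in the KO clones. Krt14 and Cdh1 went the other way, from 0.0757 to 2.72 CPM and from 0.234 to 0.356 CPM. The list of macrophage and haematopoietic markers was at 353.4 to 643.6 CPM in the Mut and 5.73 to 47.1 CPM in the KO clones, with Cd34 alone at means of 492.9 and 22.1 CPM, while Emr1 and Tyrobp were at 0 in both. Their part in the difference of Crabp1 was not tested.

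By mean level per kb of exon, TL1 and KO clones shared their first 5 members in order (Crabp2, Rdh10, Crabp1, Rarb, Stra6), and TL2 and Mut clones their first 4 (Crabp1, Crabp2, Rdh10, Rarb). In MSC, Aldh1a2 had the highest mean, 38.9 CPM per kb, with a range of 2.95 to 101.5 that overlaps Crabp1, next at 5.36, and Crabp2, at 4.7. In TL1, Crabp2 led at 83.9 CPM per kb and Rdh10 followed at 7.19, with ranges that overlap, since Rdh10 and Crabp1 were above Crabp2 in TL1 1b. In TL2, Crabp1 led by its mean of 263.1, which rests on TL2 3, since its median was 2.41. In the Mut clones Crabp1 was at 362.3 and Crabp2 at 41.8 CPM per kb without overlap. In the KO clones Crabp2 was first at 20.8 and Rdh10 second at 3.84, also without overlap.

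Other retinoid genes were taken from 7 lists of 64 genes covering uptake and storage, retinol and retinal interconversion, retinal dehydrogenases, carriers, breakdown, receptors with cofactors, and response genes. The table held 63 of them. Leaving out the members, 37 were tested between lines and MSC, and 3 rose and 4 fell, where 3.86% of all genes tested were called as higher and 4.79% as lower. The risers were Gprc5a, a retinoic acid-induced membrane protein, at 58.7 ± 22.2 CPM (SD, n = 10) in lines against 5.96 ± 5.44 CPM (SD, n = 3) in MSC, with a log2 change of 3.35 ± 0.60 (edgeR adjusted p = 0.00571), Rbp2, a cellular retinol-binding protein, and Rxrb, a partner receptor. Rbp2 had 0 counts in MSC and 230 over the lines, which is at least 19.8-fold higher against a floor of 3 counts over the group (edgeR adjusted p = 0.04). Rbp2 passed the filter on low counts only through the lines, so it could enter only as a rise. Rxrb differed by 0.49 ± 0.13 (edgeR adjusted p = 0.0391). The 4 that fell were Ret, a receptor tyrosine kinase induced by retinoic acid, at -4.42 ± 0.77, Meis2, a homeobox gene, at -1.50 ± 0.27, Adh1, an alcohol dehydrogenase that oxidises retinol, at -4.22 ± 0.97, and Dhrs3, which reduces retinal back to retinol, at -2.96 ± 0.75. Their edgeR adjusted p-values were 0.00461, 0.00573, 0.0197 and 0.03. Gprc5a, Meis2 and Ret were called in all 22 alternatives.

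The response genes of the lists thus went in both directions, with 1 called higher (Gprc5a) and 4 lower (Cyp26b1, Dhrs3, Meis2 and Ret) of 15 tested, while the receptors Rara, Rarg and Rxra did not pass. Rara was at 94.6 ± 21.9 CPM (SD, n = 3) in MSC and 51.3 ± 16.3 CPM (SD, n = 10) in lines (-0.88 ± 0.27, edgeR adjusted p = 0.0633). Rarg, the most abundant receptor by CPM, was at 154.6 ± 3.22 CPM (SD, n = 3) against 203.7 ± 53.4 CPM (SD, n = 10), and Rxra at 76.8 ± 24.1 against 61.8 ± 16.8 CPM. Other settings ended some of these calls. With lines summed by title number the adjusted p of Adh1 was 0.069 and that of Rxrb 0.0983. Rbp2 was at 0.116 with limma-voom, and Rxrb at 0.0923 with no filter on low counts and at 0.0512 with DESeq2 size factors. With TL1 alone against MSC, Adh1 (0.0544), Dhrs3 (0.0577), Rbp2 (0.0673) and Rxrb (0.157) lost their calls, and with TL2 alone Adh1 (0.0817), Dhrs3 (0.112) and Rbp2 (0.0521). The call of Dhrs3 was lost without MSC 1 (adjusted p = 0.125), MSC 2 (0.0634) or MSC 3 (0.111), and that of Adh1 without MSC 3 (0.319). Rbp2 lost it without MSC 1 (0.136), MSC 2 (0.101), MSC 3 (0.15), TL1 1a (0.0588), TL1 1b (0.0595), TL2 1 (0.0566) or TL2 3 (0.0524). Rxrb lost it without any 1 of MSC 1, 2 or 3 (0.127 to 0.176), TL1 1a, 1b, 2a, 2b or 3b (0.0515 to 0.0667), TL2 2b (0.0595) or TL2 3 (0.0722). Between the generations, 0 of the 45 listed genes tested were called.

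**Figure D4:**
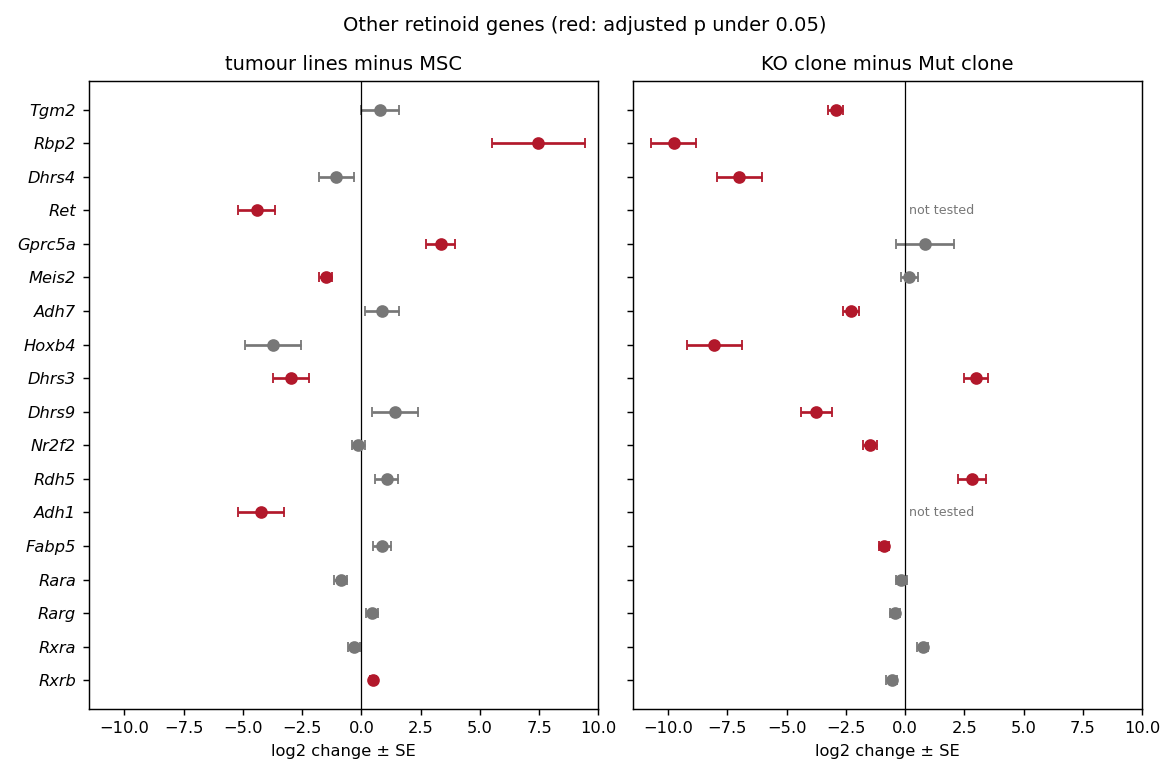
Fitted log2 change with its SE for 18 other retinoid genes in lines against MSC and in KO against Mut clones; red marks an adjusted p under 0.05. Dhrs3 is at -2.96 in the first comparison and 3.01 in the second, and Rbp2 at 7.47 and -9.77, where both values of Rbp2 come from fits against a group with 0 counts and depend on the prior count.

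In the KO clones, 11 of 32 tested list genes outside the members fell and 4 rose, where 12% of all genes tested were called as lower and 14.2% as higher. Among storage and carrier proteins, Rbp2 went from 222 counts to 0, at least 70.8-fold lower, and Fabp5, a fatty acid-binding protein that also carries retinoic acid, fell by 0.89 ± 0.22. Among the oxidoreductases, Dhrs4 went from 170 counts to 1 (ratio 162.6, interval 28.8 to 6458), Dhrs9 fell by 3.75 ± 0.66 and Adh7 fell by 2.28 ± 0.35, while Dhrs3 rose by 3.01 ± 0.51 and Rdh5, a retinol dehydrogenase, by 2.82 ± 0.58. Tgm2, a transglutaminase induced by retinoic acid, fell by 2.92 ± 0.32, Nr2f2, an orphan nuclear receptor, fell by 1.49 ± 0.29, and Hoxb4 went from 67 counts to 0, at least 21.4-fold lower. The edgeR adjusted p-values of these 10 genes were between 0.0017 and 0.0281. Rbp2, Hoxb4 and Dhrs4 passed the filter on low counts only through the Mut clones, so they could enter only as falls. Dhrs3, with 17 counts over the Mut clones, passed only through the KO clones and could enter only as a rise. Rxra (0.74 ± 0.23, edgeR adjusted p = 0.0584), Rxrb (-0.57 ± 0.22, 0.0985), Rarg (-0.42 ± 0.21, 0.175) and Rara (-0.15 ± 0.22, 0.641) did not pass.

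Outside the rule for naming genes, Ncoa2, Ncoa3 and Ppard were called as well, with log2 changes of -0.90, -0.90 and 0.82, and were picked after their values were seen. The calls rest on 2 libraries against 2, and several depended on 1 of them. Without Mut clone 1 the calls of Dhrs3 (adjusted p = 0.0596), Dhrs9 (0.0623), Fabp5 (0.0958), Hoxb4 (0.0537) and Nr2f2 (0.0613) were lost, and without Mut clone 2 those of Adh7 (0.0512), Dhrs3 (0.0691), Dhrs9 (0.0574), Hoxb4 (0.0862) and Rdh5 (0.0738). Without KO clone 1 those of Fabp5 (0.116), Nr2f2 (0.0682) and Rdh5 (0.0744) were lost, and without KO clone 2 those of Dhrs3 (0.054), Fabp5 (0.148), Nr2f2 (0.0796) and Rdh5 (0.0522). Tgm2, Rbp2 and Dhrs4 kept their calls without any 1 clone. In the fit of all 17 libraries, Dhrs4, Rbp2 and Rdh5 kept their calls and the other 7 named genes lost them, with adjusted p from 0.0542 for Nr2f2 to 0.283 for Fabp5.

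The genes whose log2 CPM followed each member most closely over the 17 libraries were sought among 10146 genes averaging 5 CPM or more. Pitx1 (Pearson r = 0.94) and Rps4y2 (0.92) came nearest to Aldh1a2, Alpl (0.90) and Bicc1 (0.90) to Cyp26b1, and Omd (0.80) and Itpr1 (0.79) to Aldh1a1. Rpe (0.93) and Nabp1 (0.90) came nearest to Crabp1, Aqp1 (0.89) and Mkx (0.85) to Crabp2, Nfat5 (0.88) and Slc14a1 (0.85) to Rarb, and Zcwpw1 (0.81) and Ccdc120 (0.78) to Stra6. For Rdh10 they were Adam8 (0.87) and Rnasek (0.78), and for Aldh1a3 Coro1b (0.83) and Galk2 (0.81). These are descriptions over 17 libraries, and groups and title numbers are shared among them.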

How the data were processed

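RNA was sequenced as single-end 60-base reads, per the labels' protocols. The submitters' processing notes name TopHat2 2.0.10, HTSeq 0.6.1p1, cutadapt and DESeq2 1.6.3, and build mm10. The authors deposited raw counts, 1 row per symbol; 4 columns match no sample and were not used. For annotation and strand setting, the entry is: not given in the sources used here.

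CPM were computed on TMM library sizes. Tests were edgeR 4.0.16 quasi-likelihood fits (R 4.3.3; filterByExpr, robust, Benjamini-Hochberg adjusted p under 0.05) on 13 libraries of MSC, TL1 and TL2, and on 4 clone libraries alone, tested on simulated data. SE is the log2 change divided by the root of the F statistic. DESeq2 1.42.0, limma 3.58.1 and the other alternatives appear in the closing section. Library names carry the number in the titles, with a letter where a group holds it more than once; clones are numbered in accession order. Levels per kb use GENCODE M21 exon unions, and positions are GRCm38 (RefSeq GRCm38.p6 for promoters). No pair of libraries of a group differed by as little as sampling noise. Within a number, deviations of TL1 and TL2 from their group means correlated at 0.473, 0.374 and 0.485. Correlations of either with MSC were -0.0285 to 0.19. No reference from libraries of different numbers is given, so these values do not settle which groups are matched by number. The main fits used groups only, so their p-values do not allow for likeness between lines of a number. The title number as a block covered MSC as well, and a call of Stra6 rests on that setting. Named list genes were those called in any comparison, up to 15 by adjusted p, and 4 receptors; list counts include genes whose own values are not reported here. The members and lists were chosen with earlier results of these data known.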

Additional observations from a re-analysis of the deposited data

Results flagged for a closer look

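In groups of 4 to 10 libraries, a value was taken up when its gap to its neighbour was large against the range of the group (Dixon's 95% limit). Chance does this in about 5% of groups where values are normally spread, which was not checked for these CPM. In all, 18 gene-group pairs were examined. Crabp1 in TL2 3 was at 840.1 CPM against 2.82 CPM in the next TL2 line. Aldh1a1 in TL2 3 was at 0.707 CPM, with the next TL2 line at 0.28 CPM, which is 11 counts against 4. Rarb in TL1 1b was at 34.2 CPM, with the next TL1 line at 11.3 CPM.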

How the results depend on the processing

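Aldh1a2 kept its call in lines against MSC under all alternatives run. Members called higher in lines against MSC numbered 2 with DESeq2, 1 with the replicate block and 2 with lines summed per number, against 0, and members called lower 1 with lines summed and 2 to 3 with a library left out. In the clones, members called lower numbered 2 with library totals or DESeq2, 0 with all 17 libraries in 1 fit and 1 to 2 with a clone left out, where the lone clone is assumed to vary like the others. List genes called higher in lines against MSC numbered 5 with DESeq2 and 1 with TL1 alone, and lower 4 with TL1 alone and 4 with TL2 alone; leaving out a library gave 1 to 3 and 4 to 9. List genes called higher in the clones numbered 2 with library totals and 1 with 17 libraries, and lower 2 with 17 libraries; leaving out a clone gave 0 to 2 and 6 to 10. Of all genes, lines against MSC gave 1167 higher with DESeq2 and 251 with TL2 alone, and lower 1041 with DESeq2, 967 with limma-voom, 968 with the replicate block, 387 with TL1 alone and 295 with TL2 alone, against 512 and 635; leaving out a library gave 75 to 682 and 229 to 850, both lowest without MSC 3. Without MSC 1 these were 88 and 261, and without MSC 2 247 rose. TL2 minus TL1 gave 3 lower with DESeq2. In the clones, 17 libraries gave 512 higher and 308 lower, and leaving out a clone 796 to 1016 and 502 to 753, against 1734 and 1466.

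Uncalled log2 changes changed sign. Crabp1 in lines against MSC was -0.40 with limma-voom, -0.65 with the replicate block and -0.10 with TL1 alone. In TL2 minus TL1, the replicate block gave Crabp2 -0.16, Rarb 0.54 and Rdh10 0.034, and limma-voom gave Rarb 0.71. With a library left out, TL2 minus TL1 ranged from -0.90 to 0.012 for Aldh1a1, -1.56 to 6.48 for Crabp1, -0.94 to 0.45 for Aldh1a2, -0.30 to 0.89 for Crabp2, -0.47 to 1.03 for Rarb and -0.44 to 0.12 for Rdh10, and Crabp1 in lines against MSC from -0.90 to 3.28. The causes were not tested. The replicate block changed no other call of a member. Depth limits Aldh1a3 in every comparison, and Aldh1a1, Aldh1a2 and Cyp26b1 in the clones.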
